A study of Homo sapiens with 96 samples.

Results

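Clustered annotated intronic sites were examined in a list of sites of A-to-I editing compiled for K562, a human cell line of chronic myeloid leukaemia. They were the sites that the list places in introns and marks as annotated and that have at least 1 other listed site within 100 bases on the same chromosome and strand. This rule chose 1568 of the 4149 listed sites. It left 641 annotated intronic sites with no listed neighbour at that distance, which are called isolated here. The 1568 sites formed 453 clusters that together held 1701 listed sites, of which 111 were unannotated and 22 lay outside introns. The rule itself used position and annotation only. The list had already been filtered by detection and editing level, so both entered the choice through the sites and neighbours that were listed.

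In A-to-I editing, enzymes of the ADAR family deaminate adenosine to inosine in double-stranded RNA, and inosine is read as guanosine by reverse transcriptase. An intron can fold back on itself where it holds a stretch and its inverted copy, and ADAR can then edit many adenosines along the same duplex. Introns are removed during splicing and most are degraded soon afterwards, so edited introns are found in nascent and unspliced RNA and in introns that outlast splicing. ADAR enzymes are known to disfavour a guanosine just before the edited adenosine and to favour an adenosine that faces a cytidine.

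Total RNA without rRNA was sequenced by the authors from K562 and derived lines, and the deposited value is the editing level, the fraction from 0 to 1 of reads edited, in each of 96 samples in 25 groups. Groups of K562 treated with 1 agent were DMSO for 2 to 48 h (8 samples), imatinib (5) and etoposide (5) for 6 to 48 h, romidepsin for 3 to 48 h (7), rapamycin (2) and Torin1 (2) for 3 or 6 h, and actinomycin D (2) and alpha-amanitin (2) for 2 or 6 h. In the actinomycin D chase, K562 received DMSO, talazoparib, SN-38, etoposide or cyclophosphamide for 6 h and then actinomycin D for 0 h (5), 1 h (2), 2 h (5), 4 h (2) or 6 h (5). In the alpha-amanitin chase, DMSO or etoposide for 6 h was followed by alpha-amanitin for 0, 2, 4 or 6 h (2 each), and in the wash-out DMSO, etoposide or SN-38 for 6 h was followed by 0, 2 or 6 h without drug (3 each). A pretreatment of 3 h with DMSO (6) or with the kinase inhibitors AZ-20, KU-60019 and NU7441 together (4) preceded DMSO, etoposide, Mirin, SN-38 or talazoparib for 3 or 6 h. Lentiviral lines that overexpress AsiSI, Cas9 or LINE, or carry an shRNA against CSB, LIG3 or MRE11A, were given doxycycline (8) or water (8) for 2 to 13 days, and 1 sample was untreated. Most conditions were a single sample. The paper describes drug treatment in wells of culture plates and calls its samples independent, but does not say which were separate biological replicates. The p-values therefore measure only the spread between these samples. Editing levels cannot check the cell line against expression markers.

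A level of 0 in the list can stand for reads without editing or for no reads at all, so it was treated as not recorded, and no depth per site is given. The number of listed sites recorded ran from 30 to 633 per sample, with a median of 235.5. The reads per sample that the paper reports span a far narrower range, so this number is not a measure of depth. In DMSO alone it was 154 at 12 h and 633 at 48 h. The doxycycline and water samples of the lines were the sparsest, with medians of 62.5 and 66 listed sites. Clustered sites gave between 13 and 320 of the recorded sites of a sample, with a median of 83.

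The sequences of 4 of the largest clusters are shown because the number, spacing and facing copies of the edited adenosines can be read in them. They are the reference sequence of GRCh38 on the transcript strand, written 5′ to 3′ as DNA, with each listed site as a capital A.
RAB3GAP2, chr1:220203861-220204045, minus strand: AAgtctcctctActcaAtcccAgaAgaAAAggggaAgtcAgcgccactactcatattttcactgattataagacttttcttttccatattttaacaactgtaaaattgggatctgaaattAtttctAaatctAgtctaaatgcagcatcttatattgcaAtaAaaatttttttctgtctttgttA
MTCH1, chr6:36973829-36974029, minus strand: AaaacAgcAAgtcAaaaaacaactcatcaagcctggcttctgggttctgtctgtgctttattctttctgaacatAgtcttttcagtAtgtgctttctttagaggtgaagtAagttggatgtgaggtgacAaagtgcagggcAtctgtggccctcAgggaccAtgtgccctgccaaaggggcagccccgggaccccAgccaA
MTCH1, chr6:36974890-36975011, minus strand: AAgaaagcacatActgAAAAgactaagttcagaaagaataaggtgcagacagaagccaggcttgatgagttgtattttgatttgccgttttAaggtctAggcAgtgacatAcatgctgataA
STARD4, chr5:111509747-111509829, minus strand: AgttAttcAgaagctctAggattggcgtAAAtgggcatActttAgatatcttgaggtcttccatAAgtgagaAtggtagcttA

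The largest cluster had 17 sites in 185 bases of intron 8 of RAB3GAP2, which encodes the noncatalytic subunit of the Rab3 GTPase-activating complex. MTCH1, a mitochondrial carrier homolog, held clusters of 14 and 12 sites in its intron 7. The 14 sites of SYCP2L lay in 160 bases of its intron 6 and the 13 sites of STARD4, a sterol transfer protein, in 83 bases of its intron 1, the shortest span among the clusters named here. Further large clusters were in DDX10, an RNA helicase (13 sites), STXBP5, the syntaxin-binding protein tomosyn (11), and TMEM245 (11). Introns are numbered in the canonical transcript of GENCODE release 44.

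Most clusters were small. The median cluster had 3 listed sites and spanned 41 bases, and 200 of the 453 clusters (44.2%) had just 2. Another 170 clusters had 3 to 5 sites, 66 had 6 to 9, and 17 had 10 or more and held 195 of the clustered sites. The median gap between neighbours was 10 bases, and 230 of 1248 gaps (18.4%) were a single base, that is adjacent adenosines.

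**Figure D1:**
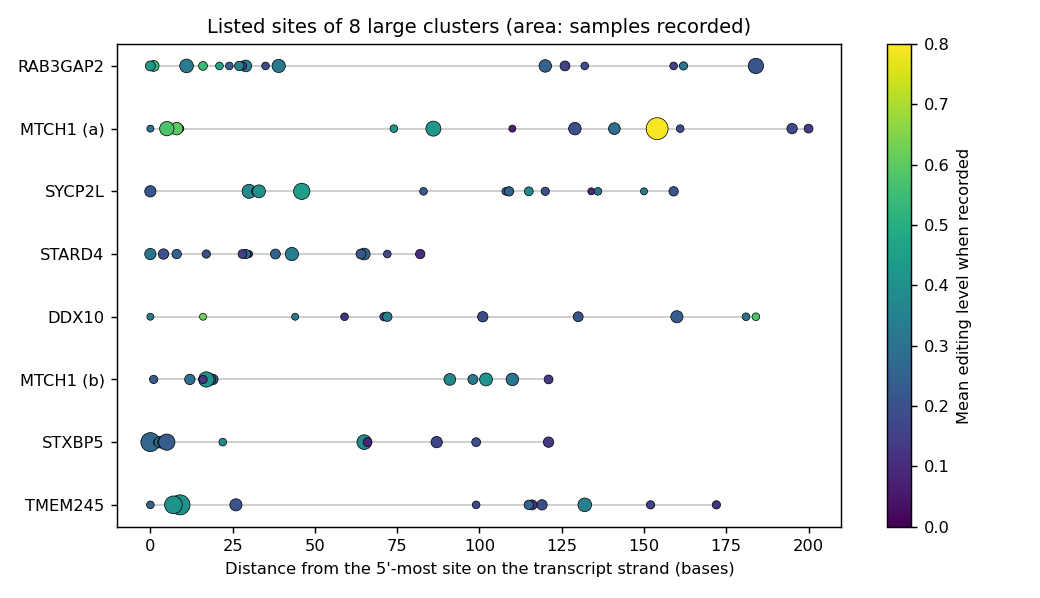
Listed sites of 8 of the largest clusters, each on a line by its distance in bases from the 5′-most site on the transcript strand. Colour gives the mean editing level in the samples that recorded the site and point area the number of these samples. Sites of 1 cluster differ widely in both, as in the upper MTCH1 cluster, where site means run from 0.0769 to 0.791.

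The clusters lay in 315 protein-coding host genes by the annotation used here. Of these genes, 204 held 1 cluster and 111 held more, and 43 genes with 10 or more clustered sites together held 39.6% of all of them. RAB3GAP2 led with 35 clustered sites in 4 clusters, and the genes named next were MTCH1 with 25 in 2, DDX10 with 24 in 4 and CMSS1 with 22 in 4. CSTF1, a subunit of the cleavage stimulation factor for pre-mRNA 3′ ends, held 18 in 2 clusters, ANKRD17 18 in 5, and SYCP2L 18 in 2. None of these 7 genes had more than 1 isolated annotated intronic site. A total of 153 clustered sites lay in more than 1 gene on their strand, so their host was assigned by rule, and 71 lay outside the introns of the canonical transcript.

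Genes of the ZNF family, which encode zinc finger proteins, held 23 clustered sites in 7 genes, or 1.47% of the clustered sites against 2.18% of the isolated ones and 2.65% of the whole list. ZNF215 had 8 of the 23, in 2 clusters, and ZNF586 had 5. Of the 23, 16 were recorded in at least 2 samples, and the most frequent in 12.

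Position in the gene was much alike for clustered and isolated sites. The first intron held 31.3% of clustered sites with a canonical intron and 29.7% of isolated ones, and the median host introns were 11868 and 11930 bases long. The median distance to the nearest exon was 2272 bases for clustered and 1784 bases for isolated sites. These values describe the list and were not tested, since sites are not replicates.

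The base before the edited adenosine was T in 47.6% of the clustered sites, A in 38.5%, C in 10.8% and G in 3.06%. Among the 6306 unlisted adenosines between the outermost sites of the same clusters, G came before 22.3% and T before 22.8%. Isolated sites had T before them more often, at 59.6%, and G after them at 55.2%, against 38.2% with G after them among clustered sites. The rule itself puts an A beside every clustered site whose listed neighbour is the next base, which an isolated site cannot have, so the shares of the other bases are lower among clustered sites in part by the choice. Mean levels hardly moved with the base before the site, with medians of 0.389 for T, 0.351 for A, 0.364 for C and 0.366 for G over sites recorded in at least 2 samples.

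Many clusters had an inverted copy of themselves close by. A window reaching 75 bases to either side of each cluster centre was aligned with the reverse complement of the sequence within 2000 bases of the window, and a local alignment score of 75 or more was counted. Of the 453 clusters, 197 (43.5%) reached it, with a median of 766 bases between the copies. The share was 33.0% for clusters of 2 sites, 47.1% for 3 to 5, 59.1% for 6 to 9, and 70.6% (12 of 17) for 10 or more. It was 17.3% around the 641 isolated sites and 3.20% in windows moved 5000 bases to either side of the clusters. In 149 of the 197 clusters (75.6%) the facing copy itself held listed sites.

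Facing clusters are visible in the printed sequences. An alignment of 137 bases joined the 14-site cluster of MTCH1 to the reverse complement of its 12-site cluster at 88.3% identity, and the centres of the clusters were 1021 bases apart. The 11 sites of STXBP5 likewise faced a cluster of 8 over 141 bases at 84.4%. In all, 62 pairs of clusters faced each other. The MTCH1 clusters were recorded in 50 and 37 samples and shared 26. Even with a clustered site of another host gene recorded, a clustered site was recorded in 8.515% of cases, against 5.955% of all values of clustered sites, so the product of both shares is no baseline for this number. The window on the largest cluster, in RAB3GAP2, did not reach the score: its best match was 54 bases long, 106 bases away, at 90.7% identity. The window on a neighbouring cluster of 6 sites in RAB3GAP2 did, over 124 bases at 88.7% identity. Its facing copy overlapped the largest cluster, and the centres of these 2 clusters were 249 bases apart.

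Within the aligned stretches, the base that faced an edited adenosine could be read. Of 736 clustered sites in them, 592 (80.4%) faced T, the base that pairs with A, and 125 (17.0%) faced C. Of 7292 unlisted adenosines in the same stretches, 92.7% faced T and 4.06% faced C. Clustered sites opposite C had a median mean level of 0.434 (quartiles 0.311 and 0.552) and 23.2% of them were recorded in at least 10 samples. Those opposite T had a median of 0.342 (quartiles 0.229 and 0.491), and 12.5% were recorded that often. These shares are descriptions of a predicted pairing and carry no test.

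A clustered site was recorded in a median of 3 of the 96 samples (quartiles 2 and 7), and an isolated one in 2 (quartiles 2 and 4). Of the 1568 clustered sites, 237 (15.1%) were recorded in at least 10 samples, against 59 of 641 isolated sites (9.20%), and 58 clustered sites were recorded in none of the 96. Over all listed sites with levels, 14.15% were recorded in at least 10 samples and the median was 3, so clustered sites were close to the whole list. The share that reached 10 samples was 12.2% in clusters of 2, 10.9% in clusters of 3 to 5, 18.3% in clusters of 6 to 9 and 26.2% in clusters of 10 or more. The detection methods also differed. SPRINT, a caller that uses the grouping of substitutions, had called 67.5% of clustered and 19.97% of isolated sites, and 28.0% in clusters of 2, 62.1% in clusters of 3 to 5, 95.2% in clusters of 6 to 9 and 98.97% in clusters of 10 or more. The part of the caller in these differences was not tested.

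The most widely recorded clustered site lay at position 3648327 of chromosome 19, in intron 9 of PIP5K1C, the gene of a phosphatidylinositol phosphate kinase. It was recorded in 85 samples, with a lowest level of 0.0476, a median of 0.183 and a highest of 0.75. Its neighbour at position 3648325 was recorded in 59, between 0.0213 and 0.337 with a median of 0.0833. The site in IQCB1, which encodes a ciliary protein, was recorded in 68 samples from 0.25 to 1 with a median of 0.632. Sites in ADGRB3, an adhesion receptor gene (53 samples, median 0.667), ITGAV, the integrin alpha V gene (50, median 0.398), and STXBP5 (47, median 0.28) came next. The IQCB1 site spanned much of the scale between samples and the PIP5K1C site at 3648325 a narrower range, and the median SD over samples was 0.177 for the 237 sites recorded in at least 10.

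Over all 8964 recorded values of clustered sites the median level was 0.375 (quartiles 0.202 and 0.525). Levels were lower in clusters of 6 or more sites, with medians of 0.455 in clusters of 2, 0.5 in clusters of 3 to 5, 0.318 in clusters of 6 to 9 and 0.265 in clusters of 10 or more. In the 84 samples with at least 5 recorded sites of each kind, the median clustered level averaged 0.403 ± 0.0791 (SD, n = 84) and the median isolated level 0.453 ± 0.072. The mean difference, clustered minus isolated, was -0.0501 ± 0.0823 (SD), with clustered sites, lower in 58 samples and higher in 10, and a sign-flip permutation test over samples gave p = 1e-05, the smallest it can give. Among sites found by at least 2 methods, the difference was 0.00551 in the other direction, with p = 0.59 in the same permutation test.

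Neighbours tended to be recorded in the same samples. When a clustered site was recorded, a neighbour within 100 bases was recorded in the same sample in 5566 of 8964 cases (62.1%), and when it was not, in 10.7%. The first share was the higher one in 95 of the 96 samples, with per-sample medians of 56.3% and 10.5%. Of the 453 clusters, 374 had at least 2 sites recorded together in some sample and 79 never did, 62 of the latter being clusters of 2. The large clusters named here were never recorded whole. RAB3GAP2 reached 7 of its 17 sites at most, in 4 samples, and MTCH1 8 of 14 in DMSO for 12 h. Of the 83 clusters of 6 or more sites, 10 had every site recorded in some sample, and the median was 71.4% of sites in the fullest sample.

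Each adjacent pair was tested over the 96 samples by Fisher's exact test, two-sided, with each site recorded in at least 2 samples and p adjusted over all adjacent pairs of the list by the Benjamini-Hochberg method. Over the whole list, 24.3% of the 2789 pairs tested were recorded together more often than their separate frequencies give, at an adjusted p under 0.05. Among pairs with a clustered site, 365 of 885 (41.2%) were, none was recorded together less often at that threshold, and 106 were never together. The share fell with distance, from 104 of 167 pairs of adjacent bases (62.3%) to 36.3% at 6 to 10 bases and 30.2% at 51 to 100 bases. Other adjacent pairs of the list showed the same at short range, with 50 of 86 called at adjacent bases (58.1%) and 33.9% at 51 to 100 bases. They were called in 57.7% of cases at 3 to 5 bases, 41.2% at 6 to 10 and 28.6% at 11 to 25. Pairs with a clustered site were called in 42.5%, 36.3% and 35.7% at these distances. The rule holds the latter to 100 bases, while 873 of the 2789 whole-list pairs lay over 100000 bases apart, where 2.18% were called. The 24.3% is therefore no baseline at like distance. Wider intronic pairs up to 300 bases apart were called in 17 of 52 cases (32.7%), those from there to 1000 bases in 8.57%, and those over 100000 bases apart in 2.03%. Sites within 100 bases often lie on the same reads of 150 bases, and every sample adds its own depth, so shared reads and shared editing cannot be told apart here. Among 173 tested pairs of which neither site had been called by SPRINT, 50 (28.9%) passed, against 100 of 925 such pairs (10.8%) over the whole list. Of those 925, 450 lay over 100000 bases apart, where 1.11% passed, so these shares too are unlike in distance.

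**Figure D2:**
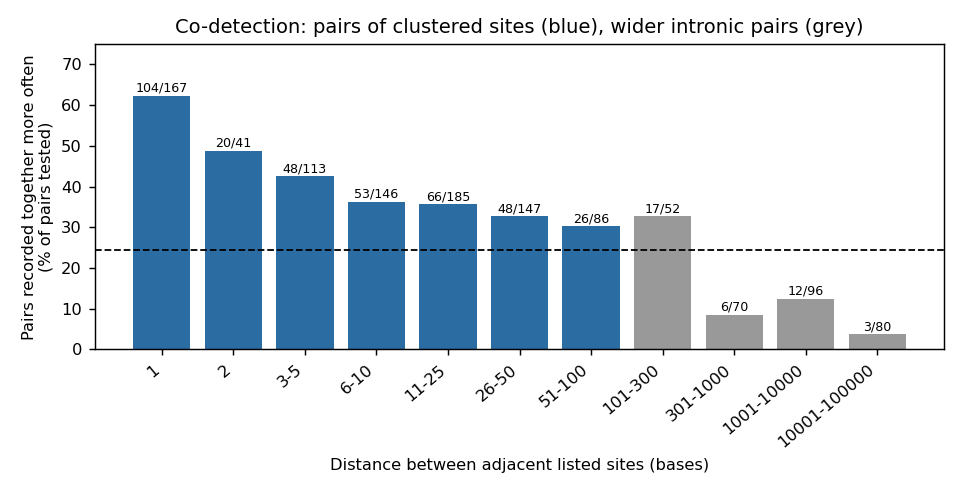
Percent of tested adjacent pairs recorded together more often than their frequencies give, by distance in bases. Blue bars are pairs with a clustered site, grey bars wider intronic pairs, and numbers over bars are called over tested. The dashed line is the 24.3% of the whole list, whose pairs lie at any distance. The blue bars fall from 62.3% at 1 base to 30.2% at 51 to 100 bases.

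The pairs with the smallest p were in NUP58, a nucleoporin gene, SLF1, a gene of a factor for the SMC5-SMC6 complex, MTCH1, RCN2, which encodes a reticulocalbin, and ITGAV. Their sequences, with 15 bases on either side and listed sites as capital A, show how close the sites lie: the sites of 4 of the 6 pairs are at most 3 bases apart. The MTCH1 pair is within the 14-site cluster printed above.
NUP58, chr13:25316902-25316934, plus strand: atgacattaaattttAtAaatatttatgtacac
NUP58, chr13:25317483-25317514, plus strand: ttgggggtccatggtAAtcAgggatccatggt
SLF1, chr5:94677576-94677607, plus strand: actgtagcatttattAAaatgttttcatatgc
RCN2, chr15:76939444-76939478, plus strand: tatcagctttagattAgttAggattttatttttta
ITGAV, chr2:186628807-186628860, plus strand: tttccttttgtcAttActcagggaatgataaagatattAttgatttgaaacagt

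The NUP58 sites at positions 25316917 and 25316919 were recorded in 20 and 22 samples, and all 20 samples of the former were among the 22 of the latter, where 4.58 would be shared from their frequencies (Fisher's exact test, adjusted p = 1.49e-15). The adjacent NUP58 sites at 25317498 and 25317499 shared 32 of 42 and 36 samples (exact test, adjusted p = 1.22e-09). In SLF1, 19 of the 20 samples with the site at 94677592 also had the site at 94677591, and in MTCH1 all 12 samples with the site at 36974021 had the one at 36974024. The RCN2 pair shared 18 samples and the ITGAV pair 27. In these pairs the less frequent site was mostly found where the more frequent one was.

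Being recorded together did not make levels equal. Within a sample, the levels of neighbours up to 100 bases apart differed by a median of 0.116 over 6040 level pairs, the same site in different samples by 0.151, and sites of different clusters in 1 sample by 0.223. Only 11.5% of the neighbouring level pairs were equal to within 0.001. The SLF1 pair had equal levels in 8 of 19 shared samples and the 5′ site higher in the other 11.

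Of the adjacent pairs of the whole list with at least 6 shared samples, 24.2% of 244 differed in level in a sign-flip permutation test over these samples, exact up to 20 samples and with 100000 resamples above. Among pairs with a clustered site, 24 of 110 (21.8%) did, so clustered pairs were not above the whole list. Pairs of adjacent bases were called in 3 of 35 cases (8.57%), against 9 of 64 (14.1%) at that distance over the whole list.

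The largest difference was in MTCH1, 13 bases apart. In 8 shared samples the site at 36973875 ran from 0.707 to 1 with a median of 0.921, and the site at 36973888 from 0.0588 to 0.359 with a median of 0.139. The ranges did not overlap, and the former was higher in 8 of 8 (mean difference 0.723 ± 0.157, SD, exact sign-flip test, adjusted p = 0.0353). In MRPL3, a mitochondrial ribosomal protein gene, the site at 131493281 lay between 0.523 and 1 and its neighbour at 131493288 between 0.0833 and 0.417, again higher in 8 of 8 samples. In IQCB1 the site at 121833205 lay between 0.329 and 0.833 in 15 shared samples, all above its neighbour at 121833216, between 0.0313 and 0.275 (mean difference 0.48 ± 0.116, SD, exact test, adjusted p = 0.000745). The STXBP5 sites at 147247776 and 147247768 averaged 0.66 and 0.164 in 10 shared samples. RB1CC1, an autophagy gene, gave the remaining 2 of the 6 largest differences, both involving the site at 52710077, which was higher in 8 of 8 samples than a neighbour 3 bases away and in 9 of 9 than one 26 bases away.
MRPL3, chr3:131493266-131493303, minus strand: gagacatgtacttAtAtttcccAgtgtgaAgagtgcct
IQCB1, chr3:121833190-121833231, minus strand: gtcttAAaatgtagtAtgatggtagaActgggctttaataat
PIP5K1C, chr19:3648310-3648342, minus strand: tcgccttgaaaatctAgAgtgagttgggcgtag

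The other called pairs had smaller mean differences, since the largest are those given above, and some of them had more shared samples. The PIP5K1C sites, 2 bases apart, averaged 0.104 at 3648325 and 0.187 at 3648327 over 57 shared samples, with the latter higher in 43 (permutation test, adjusted p = 0.000174). Even adjacent bases differed in CHD1, a chromatin remodeller gene, with means of 0.688 and 0.374 in 14 shared samples, and in NUP58, with 0.505 at 25317498 and 0.793 at 25317499 in 32. In the NUP58 pair the 3′ site was higher in 27 samples and the 5′ site in 1.

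**Figure D3:**
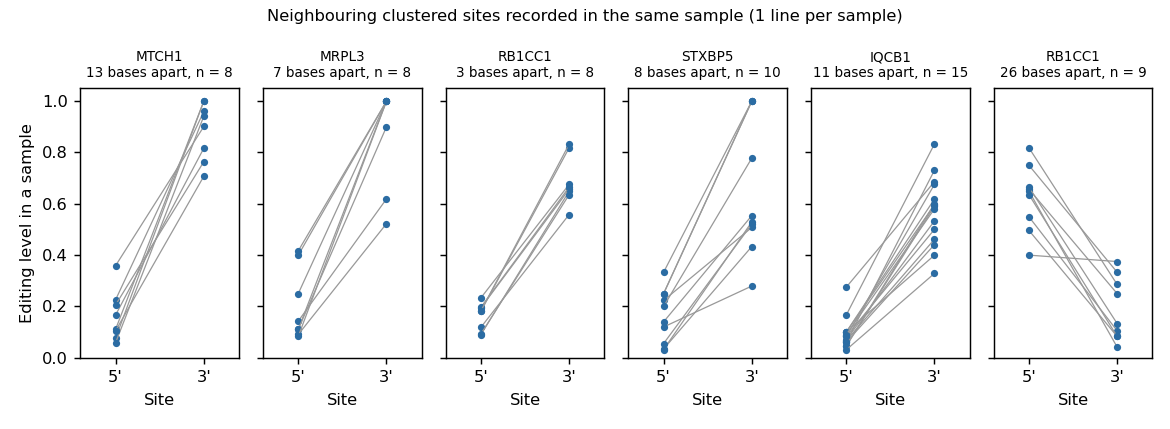
Editing levels of the 6 pairs of neighbouring sites with the largest called differences, 5′ site on the left and 3′ site on the right on the transcript strand, with a line for each sample that recorded both. In the first MTCH1 panel the 3′ site sits between 0.707 and 1 and the 5′ site at or under 0.359.

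Transcription was blocked in the actinomycin D chase, which asks how long RNA made before lasts. Fewer clustered sites were recorded after 6 h than at 0 h with each of the 5 pretreatments. At 0 h the numbers were 114 after DMSO, 100 after talazoparib, 165 after SN-38, 120 after etoposide and 117 after cyclophosphamide, and at 6 h they were 38, 43, 106, 79 and 44. The ranges overlapped through SN-38 only, which had the most at both times. The mean fell from 123.2 ± 24.6 to 62 ± 29.5 (SD, n = 5 each, exact permutation test, p = 0.0159, adjusted over 6 comparisons p = 0.0317). The number had not fallen at 2 h, when the mean was 6.2 sites above that at 0 h (exact permutation test, p = 0.794). More listed sites of all kinds were recorded at 2 h, 347.2 ± 78.7 against 287.6 ± 33.1 at 0 h (SD, n = 5 each). The clustered share of them differed by -5.98 percentage points (exact permutation test, p = 0.0556).

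As a share of all listed sites recorded in a sample, clustered sites fell from 42.6% ± 4.31 to 23.8% ± 4.94 (SD, n = 5 each, exact permutation test, p = 0.00794, adjusted p = 0.0238). The 0 h samples lay between 38.9% and 49.0% and the 6 h samples between 18.8% and 30.3%, without overlap, and the share was lower in 5 of 5 pretreatments. The number of listed sites recorded was 287.6 ± 33.1 at 0 h and 251.4 ± 77.0 at 6 h (exact permutation test, p = 0.373). Isolated annotated intronic sites numbered 24 ± 5.79 at 0 h and 31.6 ± 12.8 at 6 h, higher at 6 h in 5 of 5 pretreatments (exact permutation test, p = 0.278). Among annotated intronic sites alone, the clustered share was therefore 83.8% ± 1.33 at 0 h and 65.5% ± 4.66 at 6 h (exact permutation test, p = 0.00794, a comparison chosen after seeing the data). Sites in 3′ UTRs rose from 16.9% ± 2.55 to 26.9% ± 2.76 of the recorded sites in the same samples (exact permutation test, p = 0.00794). Both this share and the clustered share are parts of the same total, so they are not independent. The comparisons of listed, isolated and 3′ UTR sites were outside the 6 that were adjusted. With samples paired by pretreatment, 5 pairs cannot give a p under 0.0625, which is what each of these comparisons between 6 h and 0 h of number, share and level gave.

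**Figure D4:**
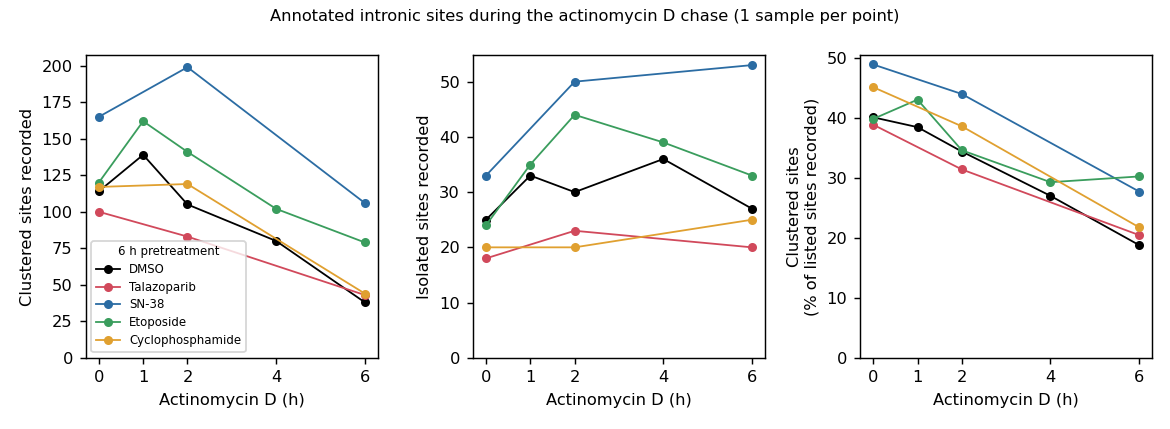
Clustered and isolated annotated intronic sites recorded, and clustered sites as a percent of all listed sites recorded, by hours of actinomycin D, with a point for each sample and a line for each 6 h pretreatment. Clustered sites fall from 100 to 165 at 0 h to 38 to 106 at 6 h, while isolated sites do not fall below their 0 h number in any pretreatment.

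Which clustered sites were recorded also differed between the times. In any of the 5 samples, 395 clustered sites were recorded at 0 h and 212 at 6 h, and 53 at both. A clustered site was recorded in a median of 3 of the 96 samples, so sparse recording alone limits such an overlap. It was not counted for all listed sites or between samples of the same time, so it cannot be read as an effect of the chase. Of the 24 sites recorded in at least 4 of 5 samples at 0 h, 20 were recorded in none at 6 h. These 24 were chosen for their 0 h values, so a fall is in part fixed by the choice. Their recorded values fell from 108 of 120 (90.0%) at 0 h to 18 of 48 (37.5%) at 1 h, 24 of 120 at 2 h, 5 of 48 (10.4%) at 4 h and 10 of 120 (8.33%) at 6 h.

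The 20 sites recorded in none of the 6 h samples included 4 in NUP58 and 3 in MTCH1. They also included 3 in LRPPRC, which encodes a mitochondrial RNA-binding protein, and 3 in FBXL4, the gene of an F-box protein of mitochondria. The MTCH1 site at 36973875 had levels of 0.822, 0.834, 0.688, 0.691 and 0.69 at 0 h and was recorded in no sample at 1, 2, 4 or 6 h. The NUP58 site at 25316917 stood between 0.61 and 1 in the 5 samples at 0 h and likewise was not recorded later. The IQCB1 site was recorded in 5 of 5 at 0 h, 1 of 2 at 1 h, 2 of 5 at 2 h, 1 of 2 at 4 h and 0 of 5 at 6 h.

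Of the 212 clustered sites recorded in any 6 h sample, 159 were recorded in none of the 5 at 0 h. Such a share was not counted for all listed sites, so with sparse recording it too cannot be read as an effect of the chase. Only 5 clustered sites were recorded in at least 4 of 5 samples at 6 h. The PIP5K1C site at 3648327 was the only clustered site recorded in at least 4 of 5 samples at both times, with means of 0.18 at 0 h and 0.241 at 6 h. A site in SDF4, the gene of a calcium-binding protein of the Golgi, at position 1222080 of chromosome 1, was recorded in none of the 5 samples at 0 h. At 2 h it had levels of 0.162, 0.15, 0.209, 0.275 and 0.31, at 4 h of 0.577 and 0.34, and at 6 h of 0.489, 0.72, 0.647, 0.641 and 0.62, so that the 6 h samples lay above every 2 h sample. The CALU site at 128742598, in the gene of calumenin, was recorded in 1 of 5 samples at 0 h and in 4 of 5 at 6 h, between 0.667 and 0.917. ZNF215 had 1 site recorded in 4 of 5 samples at 6 h and in none at 0 h. The sites of this and the preceding paragraph were chosen after their values were seen, and carry no test.

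The median level of the recorded clustered sites rose from 0.299 ± 0.0221 to 0.483 ± 0.0373 during the chase (SD, n = 5 each, exact permutation test, p = 0.00794, adjusted p = 0.0238). It lay between 0.275 and 0.333 at 0 h and between 0.417 and 0.5 at 6 h, and was already 0.166 higher at 2 h than at 0 h (exact permutation test, p = 0.00794). Low levels became rarer, since 32.3% of recorded values were under 0.2 at 0 h and 9.68% at 6 h, and 10.2% and 18.4% were equal to 0.5. Sites with both values in the same pretreatment were few, from 4 to 16, and in DMSO all 6 of them were higher at 6 h, in SN-38 14 of 16 and in talazoparib 2 of 4. The part of depth in this difference was not tested, since the list gives no reads per site. At 0 h the median isolated level was 0.5 after DMSO, 0.3737 after talazoparib, 0.4444 after SN-38, 0.3205 after etoposide and 0.4362 after cyclophosphamide. At 6 h it was 0.5 with each pretreatment, so isolated sites too were higher at 6 h in all but DMSO, which was not tested.

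The alpha-amanitin chase had 2 samples at each time and was not tested. After DMSO, clustered sites numbered 104 at 0 h, 74 at 2 h, 66 at 4 h and 44 at 6 h, and their share went from 35.7% to 20.4%. After etoposide they numbered 36, 61, 45 and 36, and the share was 20.3% at 0 h and 19.8% at 6 h. The etoposide series had fewer listed sites at 0 h, 177 against 291 in the DMSO series. Actinomycin D alone gave shares of 34.3% at 2 h and 24.1% at 6 h.

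In the lines, doxycycline was compared with water within each line and day. Clustered sites numbered 24.6 ± 7.67 with doxycycline and 23.8 ± 12.4 with water (SD, n = 8 pairs, exact sign-flip test, p = 0.836, adjusted p = 0.836), and were more numerous with doxycycline in 4 of 8. Their share of recorded sites was 39.5% ± 7.14 and 34.7% ± 11.04, higher with doxycycline in 5 of 8 pairs (exact test, p = 0.102, adjusted p = 0.152). Their median level was 0.509 ± 0.0253 and 0.465 ± 0.084, higher with doxycycline in 3 pairs and equal in the other 5 (exact test, p = 0.25, adjusted p = 0.3). That p is the smallest that 3 unequal pairs can give. At 13 to 45 clustered sites in a sample, differences smaller than this spread were not detectable.

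Over all 96 samples the share of clustered sites among recorded sites ran from 14.9% to 54.9%, with a median of 38.57%. The untreated sample, whose column names its group but not which sample it is, had 54.9% and DMSO alone a median of 47.9%, from 35.3% to 50.6%. The lowest group medians were those of the alpha-amanitin and actinomycin D chases at 6 h, 20.1% and 21.8%. The remaining groups were not compared with each other.

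**Figure D5:**
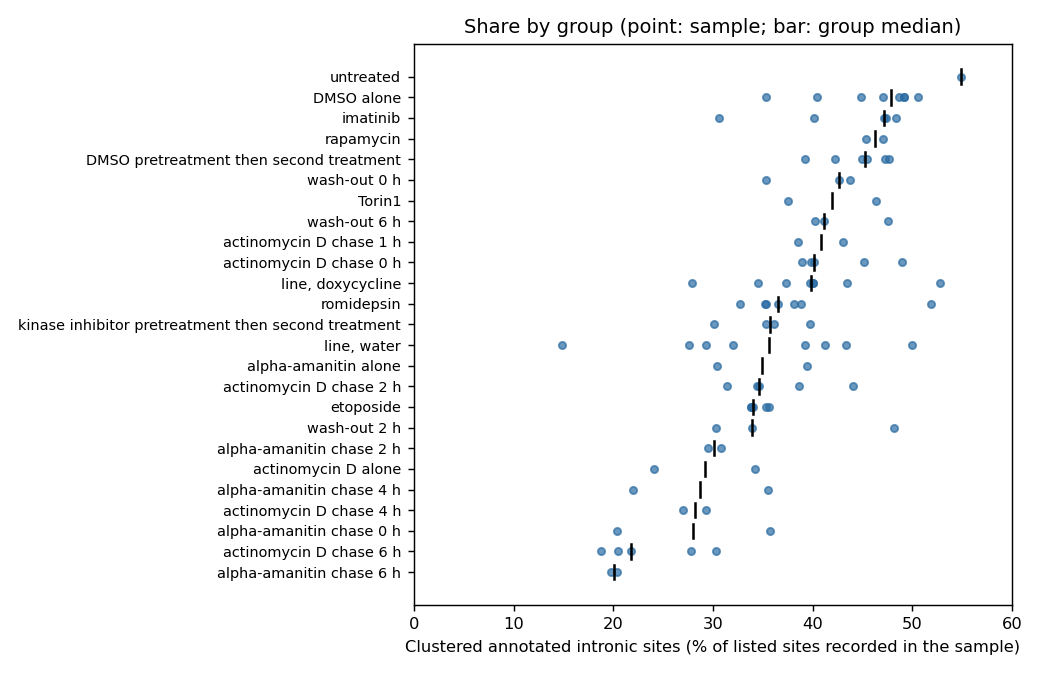
Clustered annotated intronic sites as a percent of all listed sites recorded in a sample, with a point for each sample and a bar for each group median, groups ordered by median. The 6 h chases sit lowest, at medians of 20.1% and 21.8%, and DMSO alone and the untreated sample highest, at 47.9% and 54.9%.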

How the data were processed

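Per the study's methods, trimmed reads were mapped to GRCh38 (TopHat2 2.1.1) and PCR duplicates were dropped (Picard 2.0.1). Editing was then called sample by sample with 3 tools, REDItools, RED-ML and SPRINT. Known and in-house variants and annotated repeats were filtered out, so clusters in repeats cannot appear here. A site had to occur in 2 or more samples and to exceed a level of 0.2 somewhere, and tools were chosen after Sanger sequencing. The deposited values are editing levels as a fraction, the authors' mean over the tools that detected a site in that sample. A further 34 sample columns were not used here, and 57 listed sites had no levels.

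Clusters joined listed sites within 100 bases on 1 strand. Host genes and introns came from GENCODE release 44, an annotation later than the study's, taking the protein-coding and then the shortest gene. Co-detection was tested by Fisher's exact test (each site in at least 2 samples), levels of pairs by sign-flip permutation (at least 6 shared samples), and groups by exact permutation tests, two-sided, with Benjamini-Hochberg adjustment and a threshold of 0.05. Facing copies were found by local alignment with Biopython 1.88 (match 1, mismatch -1, gap -3 and -1). The tests were tried on simulated data. Python 3.11.15, scipy 1.17.1 and pysam 0.24.0 were used.

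Named in the text were the 10 clusters with most listed sites, the 8 host genes with most clustered sites, the 6 sites recorded in most samples, the 6 pairs with the smallest p, the 6 called pairs with the largest difference, and ZNF genes. For 1 of these genes the results are not reported here. Other names were chosen after their values were seen. The members and lists were chosen with earlier results of these data known. Alternatives were other distances, methods, minimum levels and samples. Read counts are not used here, and intervals are not given because no depth per site is known. No comparison was made between the etoposide and romidepsin time courses, since the sources give them conflicting names.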

Additional observations from a re-analysis of the deposited data

Results flagged for a closer look

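In groups of 4 to 10 samples, the number, share and median level of clustered sites were checked for a sample far from the others by Dixon's criterion, in 33 groups and measures. About 1 in 20 such checks is expected to stand out without any cause, and 4 did. That rate does not apply to the chase and doxycycline samples below, since all others in their groups were tied. With romidepsin, the 24 h sample had a share of 51.9% of its recorded sites, against 38.8% in the next of the 7. In the 6 h actinomycin D chase, the talazoparib sample had a median level of 0.417 and the other 4 had 0.5. Among the 8 line samples with doxycycline, the MRE11A sample at 5 days had a median level of 0.571 and the other 7 had 0.5. Among the 8 line samples with water, the LINE sample had a median level of 0.26, and the next lowest had 0.459.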

How the results depend on the processing

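The co-detection call counts were 365 of 885 pairs in the report, 42 of 173 when neither site had been called by SPRINT and p was adjusted among such pairs of the list (24.3%, whole list 8.32%), and 211 of 246 with each site in at least 5 samples (85.8%, whole list 69.4%), fewer pairs being tested in both. They lay between 267 and 379 with levels of at least 0.1, without the 10 sparsest samples, and with 50 or 200 bases. Level differences were called in 24 of 110 pairs in the report (21.8%, whole list 24.2%). With levels of at least 0.1 it was 12 of 70 (17.1%, whole list 19.5%), and with 50 bases 24 of 102 (23.5%, whole list 24.2%). With at least 10 shared samples it was 18 of 32 (56.2%, whole list 57.0%). With both sites found by the same methods it was 22 of 93 (23.7%, whole list 24.6%). The lower level of clustered than isolated sites became 0.00551 higher among sites with at least 2 methods, and the cause was not tested. It kept its direction and side under the other 5 alternatives, 2 of them chosen after seeing the data, from -0.057 to -0.0229.

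For the actinomycin D chase, pairing by pretreatment left the differences at -61.2 sites, -18.8 percentage points and 0.184 in level, with p = 0.0625 in the exact test, the smallest 5 pairs allow. At 2 h against 0 h, the number of clustered sites was 6.2 higher, the share -5.98 points with p = 0.0556 in the exact permutation test, and the level 0.166 higher. Leaving out 1 sample gave -72.2 to -50.8 sites, -20.4 to -17.2 points and 0.178 to 0.201, with the highest p at 0.0317 in the exact permutation test. For doxycycline against water, leaving out 1 line and day gave -2 to 3.86 sites, with a change of sign without AsiSI at 13 days (-2) and without Cas9 (-1.71), 3.58 to 5.93 points and 0.016 to 0.0503. By replicate number, no paired analysis was possible because the groups compared carry no such numbers in the labels. The pairs above were formed by pretreatment or by line and day. The list gives no depth per site, so a level of a site with few reads cannot be told from that of a deep one.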
